A study of Mus musculus with 6 samples.

Results

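The Fc gamma receptors of the mouse, Fcgr1, Fcgr2b, Fcgr3 and Fcgr4, and the adaptor chains that signal for them and for related receptors, Fcer1g, Tyrobp and Hcst, were compared between CD11c+ and CD11c- T cells of the blood. The 7 genes were taken by name, and every probe set that carried exactly 1 of these symbols was kept, 11 of the 45141 probe sets on the array. Fcgr2b had 4 probe sets, Fcgr1 had 2 and each other gene had 1.

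Both groups were CD3+ CD62L- CD44high lymphocytes sorted from the blood of female C57BL/6 mice, 6 to 8 weeks of age, and they differed in surface CD11c. All 6 females of the treated group, to which both fractions belong, had received 3 mg of Depo-Provera, a progestin that synchronises the cycle. The labels put the injection 5 days before blood was taken. Of these females, 3 mice, labelled A, C and D, gave a CD11c+ and a CD11c- sample each, so that each group held 3 arrays, and each sample was 300 cells whose RNA was amplified before hybridisation. No uninjected mouse was compared here, and a sorted fraction is a mixture of whatever cells passed the gates.

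Fc gamma receptors bind the constant part of IgG. Fcgr1, Fcgr3 and Fcgr4 are activating and reach the cell surface with the Fc receptor gamma chain, the product of Fcer1g, whose cytoplasmic tail carries the paired tyrosine motif (ITAM) that recruits the kinase Syk. Fcgr2b is the inhibitory member, carries its own inhibitory tyrosine motif and recruits the phosphatase Inpp5d. Tyrobp (DAP12) is a second ITAM adaptor, used by receptors of NK and myeloid cells, whereas Hcst (DAP10) has no ITAM and couples the receptor Klrk1 (NKG2D) of NK and T cells to phosphatidylinositol 3-kinase. Most of these genes are known from myeloid, NK and B cells, and Hcst from T cells as well.

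Promoter sequences were matched for 6 of the 7 genes, all but Tyrobp, in the RefSeq set for GRCm38.p6, each with 250 bases before and 50 after the annotated start. Of the genes with a probe set that passed the test below, the promoters of Fcgr2b, Fcgr3, Fcgr4 and Fcer1g are shown. That of Hcst, which did not pass, is shown beside them. Capitals mark matches, on either strand, to 4 short motifs: GAGGAA, which reads TTCCTC on the other strand, the core bound by PU.1, a myeloid and B cell factor; TTCNNNGAA, the STAT palindrome; TTGCNNAA, a C/EBP site; and TGTGGT, read ACCACA on the other strand, the core bound by RUNX factors.
Fcgr2b, chr1:170976022-170976321, minus strand: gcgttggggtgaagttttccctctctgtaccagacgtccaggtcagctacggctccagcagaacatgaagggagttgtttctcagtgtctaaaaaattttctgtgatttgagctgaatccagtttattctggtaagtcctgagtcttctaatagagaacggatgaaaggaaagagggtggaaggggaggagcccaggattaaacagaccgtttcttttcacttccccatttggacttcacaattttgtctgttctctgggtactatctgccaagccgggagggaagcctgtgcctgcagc
Fcgr3, chr1:171059354-171059653, minus strand: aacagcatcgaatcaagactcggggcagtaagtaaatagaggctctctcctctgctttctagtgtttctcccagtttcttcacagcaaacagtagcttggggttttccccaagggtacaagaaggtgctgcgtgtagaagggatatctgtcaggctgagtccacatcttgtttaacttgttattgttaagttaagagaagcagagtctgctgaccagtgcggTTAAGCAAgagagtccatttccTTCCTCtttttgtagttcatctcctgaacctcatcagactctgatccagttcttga
Fcgr4, chr1:171018676-171018975, plus strand: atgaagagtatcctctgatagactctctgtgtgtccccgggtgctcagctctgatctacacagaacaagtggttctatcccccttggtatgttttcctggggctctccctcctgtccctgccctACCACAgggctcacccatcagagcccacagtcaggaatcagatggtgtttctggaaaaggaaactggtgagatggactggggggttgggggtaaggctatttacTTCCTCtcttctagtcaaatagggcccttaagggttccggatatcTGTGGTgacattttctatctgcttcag
Fcer1g, chr1:171234300-171234599, minus strand: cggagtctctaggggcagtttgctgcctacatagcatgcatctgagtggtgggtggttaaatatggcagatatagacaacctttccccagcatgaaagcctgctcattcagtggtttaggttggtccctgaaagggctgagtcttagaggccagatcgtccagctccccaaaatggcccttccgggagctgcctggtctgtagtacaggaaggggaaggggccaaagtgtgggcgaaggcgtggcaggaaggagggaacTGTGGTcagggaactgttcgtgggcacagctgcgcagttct
Hcst, chr7:30419805-30420104, minus strand: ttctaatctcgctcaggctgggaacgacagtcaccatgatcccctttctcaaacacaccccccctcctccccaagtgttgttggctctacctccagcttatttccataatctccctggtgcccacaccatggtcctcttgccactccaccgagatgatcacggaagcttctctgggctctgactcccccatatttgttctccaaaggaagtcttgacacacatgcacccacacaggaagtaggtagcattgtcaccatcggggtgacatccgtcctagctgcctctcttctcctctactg

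In these windows TTCCTC began at -6 in Fcgr3 and at -22 in Fcgr4, where -1 is the base before the start. Fcgr3 also held a C/EBP match at -28, and Fcgr4 held RUNX matches at -126 and 24. Counted from another annotated start of Fcgr3, whose window is not shown, its TTCCTC began at -15 and its C/EBP match at -37. The promoter of Fcer1g held a RUNX match at 10. The promoter of Fcgr1 held TTCCTC at -55 and a STAT match at -109. None of the letters searched for were found in the windows of Fcgr2b and Hcst. Of 32851 promoters of the same length, 28.3% held GAGGAA or its complement, 8.3% the STAT palindrome, 10.8% the C/EBP site and 16.8% the RUNX core. These matches describe the letters only. The matches were not set against the expression values.

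Expression is given as the deposited log2 RMA value, in which a difference of 1 is a doubling of the signal on the array. The arrays had medians from 4.4 to 4.537, and their number limits the precision. A group mean above 5.77 was taken as above background. For this level, 33 genes that belong to other tissues were averaged over the 6 arrays and their 95th percentile was taken, and 29.0% of all probe sets lay above it. Where the CD11c- mean was not above it, the fold is given as a lower bound, the CD11c+ mean against this level. Differences are CD11c+ minus CD11c- within a mouse, and adjusted p-values are from limma with the mouse as a block, adjusted over all 45141 probe sets. Values of different probe sets were not ranked against each other, because probe sets differ in how strongly they bind.

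At an adjusted p under 0.05, 6 of the 11 probe sets were higher in CD11c+ cells and 0 were lower, against 0.957% higher and 0.168% lower of all probe sets. These 6 belonged to Fcgr2b, Fcgr3, Fcgr4, Fcer1g and Tyrobp. At an unadjusted p under 0.05 in limma, 9 of the 11 were higher and 0 lower, against 2833 higher and 3254 lower of all 45141 probe sets. The median difference was 4.21 over the 11 probe sets and -0.09 over all probe sets. With each of the 7 genes represented by its brightest probe set, 4 were higher and 0 lower, against 1.4% and 0.222% of 17097 genes. Fcgr1 and Hcst did not pass with any probe set. Without mouse A no probe set of the whole array passed. At an unadjusted p under 0.05 in limma, 9 of the 11 were then higher and 0 lower, against 2796 higher and 2767 lower of all 45141 probe sets. The 6 that had passed then had differences of 3.24 to 5.31 and adjusted p from 0.0848 to 0.152. Without mouse C and without mouse D each of the 6 passed.

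**Figure D1:**
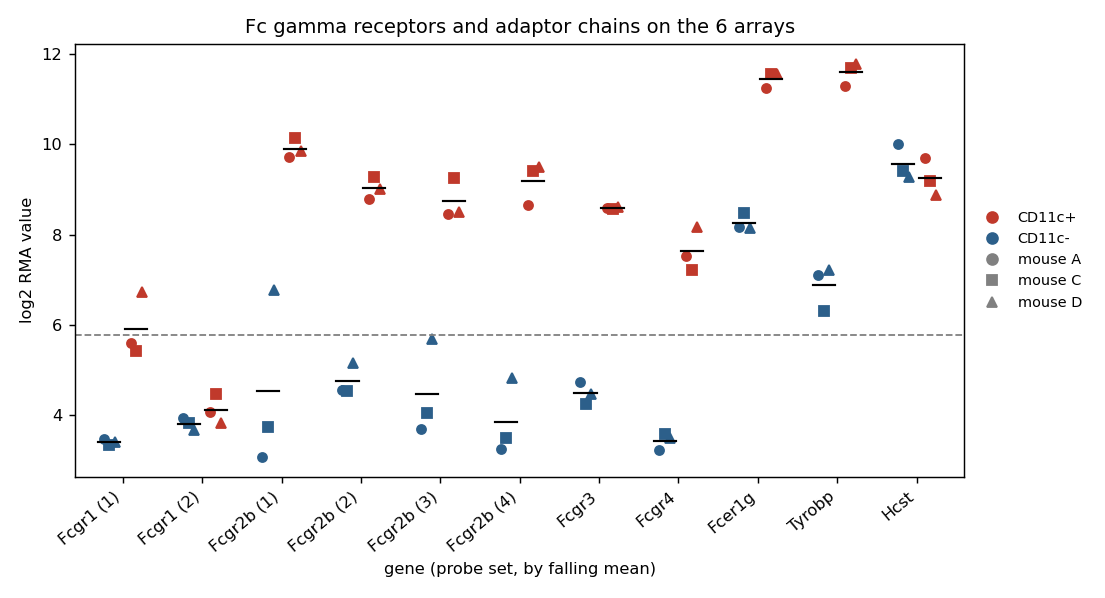
Log2 RMA values (vertical axis) of the 11 probe sets (horizontal axis, those of 1 gene numbered by falling mean) on the 6 arrays, with colour for the fraction, marker shape for the mouse, horizontal bars for group means (n = 3) and a broken line where background was set, at 5.77. The CD11c- values of the Fc gamma receptors lie below that line except for 1 array of Fcgr2b, whereas Fcer1g, Tyrobp and Hcst lie above it in both fractions.

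Fcgr3, the low-affinity activating receptor of NK and myeloid cells, read 8.60, 8.58 and 8.62 in CD11c+ cells of mice A, C and D and 4.73, 4.25 and 4.48 in CD11c- cells. The CD11c+ arrays of the 3 mice were nearly equal, and all lay above every CD11c- array, a separation seen in 6.4% of all probe sets. The difference was 4.11 (SE 0.152, 95% CI 3.71 to 4.52, adjusted p = 0.00554). Since the CD11c- mean of 4.49 ± 0.238 (SD, n = 3) was not above background, the signal was at least 7.12-fold higher in CD11c+ cells.

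Fcgr4, the activating receptor of monocytes, macrophages and neutrophils, read 7.54, 7.22 and 8.18 in CD11c+ cells of mice A, C and D and 3.23, 3.59 and 3.49 in CD11c- cells. Its highest value was in the CD11c+ cells of mouse D, and the groups did not overlap. The CD11c+ mean was 7.65 ± 0.487 and the CD11c- mean 3.44 ± 0.184 (SD, n = 3), a difference of 4.21 (SE 0.241, 95% CI 3.57 to 4.85, adjusted p = 0.0105). The bound was at least 3.67-fold.

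Fcgr1, the high-affinity IgG receptor of monocytes and macrophages, had its brighter probe set at 5.61, 5.42 and 6.74 in CD11c+ cells and 3.47, 3.35 and 3.41 in CD11c- cells of mice A, C and D. The groups did not overlap, but only the CD11c+ array of mouse D was above the background level. The difference of 2.51 (SE 0.3, 95% CI 1.71 to 3.32) did not pass (adjusted p = 0.0546) and the bound was at least 1.11-fold. This probe set passed without mouse D (difference 2.11, adjusted p = 0.0347) but not without mouse A (0.233) or without mouse C (0.117). The other probe set read 4.08, 4.47 and 3.83 against 3.93, 3.83 and 3.67, not above background in either group. Its groups overlapped, and the difference was 0.32 (95% CI -0.12 to 0.76, adjusted p = 0.526). By the mean of both probe sets Fcgr1 was higher by 1.41 (adjusted p = 0.021). That limma fit was on gene means and adjusted over 17097 genes, of which 2.4% were called higher.

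Fcgr2b, the inhibitory receptor of B cells and myeloid cells, was measured by 4 probe sets, which differed in their calls. The brightest read 9.72, 10.14 and 9.85 in CD11c+ cells of mice A, C and D and 3.08, 3.75 and 6.77 in CD11c- cells. The CD11c- array of mouse D stood above the other two and above background, yet below every CD11c+ array. The difference of 5.37 (SE 0.783, 95% CI 3.28 to 7.47) did not pass (adjusted p = 0.0797). Without mouse D it was 6.52 and passed (adjusted p = 0.00777), while it did not pass without mouse A (0.294) or without mouse C (0.19).

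The second probe set of Fcgr2b read 8.80, 9.28 and 9.01 in CD11c+ cells and 4.57, 4.55 and 5.17 in CD11c- cells, higher by 4.26 (SE 0.212, adjusted p = 0.00805). The fourth read 8.66, 9.42 and 9.51 against 3.25, 3.49 and 4.83, higher by 5.34 (SE 0.273, adjusted p = 0.00834). For these 2 probe sets the bounds were at least 9.58-fold and at least 10.8-fold. The remaining probe set read 8.45, 9.25 and 8.51 against 3.69, 4.06 and 5.69, a difference of 4.26 (SE 0.503) that did not pass (adjusted p = 0.0534). Without mouse D this difference was 4.97 and passed (adjusted p = 0.00941), while it did not pass without mouse A (0.263) or without mouse C (0.121). All 4, which read 1 gene on the same arrays, had their highest CD11c- value in mouse D. In each, every CD11c+ array lay above every CD11c- array, as in 6.4% of all probe sets. By their mean Fcgr2b was higher by 4.81 (adjusted p = 0.0106, from the fit of gene means adjusted over 17097 genes). The names of all 4 carry a letter with which the maker marks probes that match several transcripts of 1 gene, or for 2 of the 4, the brightest and the second, possibly other genes as well. The extracellular parts of Fcgr2b and Fcgr3 are closely alike. Where the probes lie was not examined, and whether the values of either gene hold signal of the other was not tested.

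Markers of other cells were set beside this array as whole lists. The summed linear signal of all 16 monocyte and macrophage markers was 1726, 1953 and 1755 in the CD11c- cells of mice A, C and D, and that of 11 B cell markers was 804, 1488 and 665. Neither sum was highest in mouse D, whereas those of 8 NK cell markers, at 883, 843 and 973, and of 8 platelet markers, at 211, 231 and 301, were. A sum is weighted to its brightest genes. In the B cell list the brightest in CD11c- cells was Blk, at 8.68, 9.79 and 8.29. Markers within the monocyte list differed. Ms4a6c, the brightest of them in CD11c- cells, read 9.75, 9.79 and 9.57 there, while Cx3cr1 read 5.90, 6.30 and 7.68. Nr4a1 and Cd68 were lowest in mouse D, at 7.88, 8.00 and 6.32 and at 6.03, 5.70 and 4.81. Lyz2 read 2.57, 3.19 and 5.06, all below background. The part of these cell types in the Fcgr2b values was not tested.

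**Figure D2:**
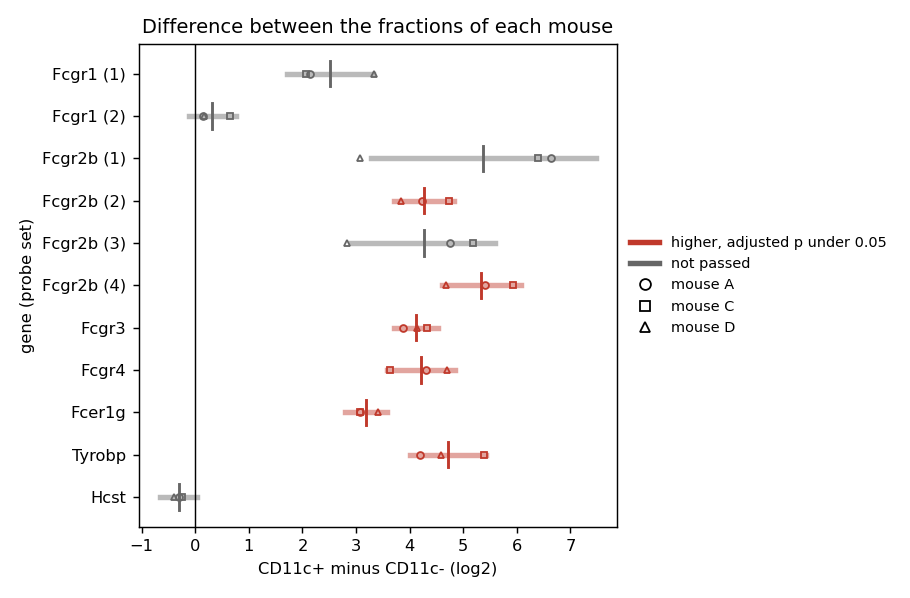
Differences of log2 RMA values, CD11c+ minus CD11c- (horizontal axis), for the 11 probe sets (vertical axis), with open markers for the 3 mice, vertical ticks for the mean, shaded bars for the 95% confidence interval from limma and red for an adjusted p under 0.05. The 3 mice lie close together for Fcgr3, Fcer1g and Hcst, and mouse D lies lowest for all 4 probe sets of Fcgr2b.

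Fcer1g, the gamma chain shared by the activating Fc receptors, read 11.25, 11.56 and 11.57 in CD11c+ cells of mice A, C and D and 8.17, 8.49 and 8.16 in CD11c- cells. Each value was far above background, so that here both groups were measured and the fold is not a bound. CD11c+ cells had 9.12-fold the signal of CD11c- cells, a difference of 3.19 (SE 0.144, 95% CI 2.8 to 3.57, adjusted p = 0.00654). Thus the CD11c- cells had signal for the gamma chain while the means of Fcgr1, Fcgr2b, Fcgr3 and Fcgr4 in the same cells were not above background.

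Tyrobp, the DAP12 adaptor of NK and myeloid receptors, read 11.30, 11.70 and 11.79 in CD11c+ cells and 7.11, 6.32 and 7.21 in CD11c- cells. The groups stood apart in every mouse, and all CD11c- arrays were above background. The fold was 26.3, a difference of 4.72 (SE 0.266, 95% CI 4.01 to 5.43, adjusted p = 0.01). The difference of Tyrobp exceeded that of Fcer1g by 1.53 ± 0.674 (SD, n = 3) and did so in 3 of 3 mice, by 1.11, 2.31 and 1.17. With 3 mice this excess is given as a description.

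Hcst, the DAP10 adaptor, read 9.71, 9.18 and 8.88 in CD11c+ cells of mice A, C and D and 10.01, 9.42 and 9.27 in CD11c- cells. Both groups were well above background and overlapped, since mice differed more than fractions. The difference of -0.31 (SE 0.127, 95% CI -0.65 to 0.03) did not pass (adjusted p = 0.411), was negative in 3 of 3 mice, as in 26.4% of all probe sets, and was 0.28 (adjusted p = 0.316) with the arrays centred on the CD3 chains. The interval leaves out a rise of the size seen for the other adaptors. Relative to Hcst in the same mouse, the difference was larger by 5.03 ± 0.565 for Tyrobp and by 3.50 ± 0.263 for Fcer1g (SD, n = 3).

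Tyrobp and Hcst are neighbours on chromosome 7 in the RefSeq order of GRCm38.p6, with no protein-coding gene between them. Their differences, 4.72 and -0.31, were thus those of adjacent genes, and the next genes on either side, Lrfn3 at -0.18 (adjusted p = 0.739) and Nfkbid at 1.09 (adjusted p = 0.177), did not pass. On chromosome 1 the order is Fcgr2b, Fcgr4, Fcgr3 and then 7 other genes before Fcer1g. Of these 7, 6 had a probe set named here, Cfap126, Sdhc, Pcp4l1, Nr1i3, Tomm40l and Apoa2, and their differences ran from -0.41 for Tomm40l to 0.20 for Nr1i3, none passing the test. These neighbours were looked up after the members' values had been seen.

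Receptors known to use Fcer1g, Tyrobp or Hcst formed a list of 30 genes, of which 20 had a probe set named here. At an adjusted p under 0.05, 2 were higher and 0 lower, against 1.4% and 0.222% of all genes, and the list's median difference was 0.55 against -0.09 over all genes. Both that passed signal through these adaptors in myeloid cells or basophils. Cd200r3, an activating receptor of basophils and mast cells, read 6.53, 8.05 and 8.19 in CD11c+ cells of mice A, C and D and 3.03, 2.74 and 2.79 in CD11c- cells. Its CD11c+ value was lowest in mouse A, and it was higher by 4.73 (adjusted p = 0.0313, at least 3.53-fold). It did not pass without mouse C (adjusted p = 0.0899), and its dimmer probe set, not above background in either group, did not pass at 0.93 (adjusted p = 0.143). Cd300ld, a myeloid receptor of the CD300 family, read 6.38, 7.26 and 6.75 against 3.90, 3.99 and 3.82 and was higher by 2.89 (adjusted p = 0.0161, at least 2.04-fold). It too did not pass without mouse C (adjusted p = 0.0564).

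Klrk1, the NKG2D receptor that pairs with Hcst, read 9.25, 9.36 and 9.50 in CD11c+ cells and 8.81, 9.12 and 8.66 in CD11c- cells. It was above background on all 6 arrays and higher in 3 of 3 mice, as were 11.3% of all probe sets, but the difference of 0.51 (95% CI 0.05 to 0.96) did not pass (adjusted p = 0.328). The interval is that of limma for this probe set alone. With the arrays centred on the CD3 chains it was 1.09 and passed (adjusted p = 0.0191). Klrk1 was the only list member with a CD11c- mean above background, and 6 members, Klrk1 included, had such a CD11c+ mean. Ncr1, the NKp46 receptor of NK cells, which pairs with Fcer1g, was not above background in either group, with means of 4.55 ± 0.117 and 3.59 ± 0.372 (SD, n = 3).

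Among the others, Cd300lb had a difference of 3.07 (adjusted p = 0.0618), Treml4 one of 1.91 (adjusted p = 0.129), Trem3 one of 1.90 (adjusted p = 0.138) and Klrc2, an activating partner of CD94, one of 1.02 (adjusted p = 0.113). At the low end stood Clec4n at -0.18, Gp6, the collagen receptor of platelets, at -0.06, and Trem1, a receptor of neutrophils and monocytes, at -0.01. The means of Treml4, Trem3, Clec4n, Gp6, Trem1 and Trem2 were not above background in either group. On single CD11c+ arrays, Treml4 was above it in mice A and C (5.97 and 6.42) and Trem3 in mouse C (6.44). The differences of Clec4n, Gp6, Trem1 and Trem2 lie among background values. No probe set was named here for 10 of the receptors, the Siglec and paired immunoglobulin-like members Siglech, Siglec15, Pira2 and Pira6 among them.

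**Figure D3:**
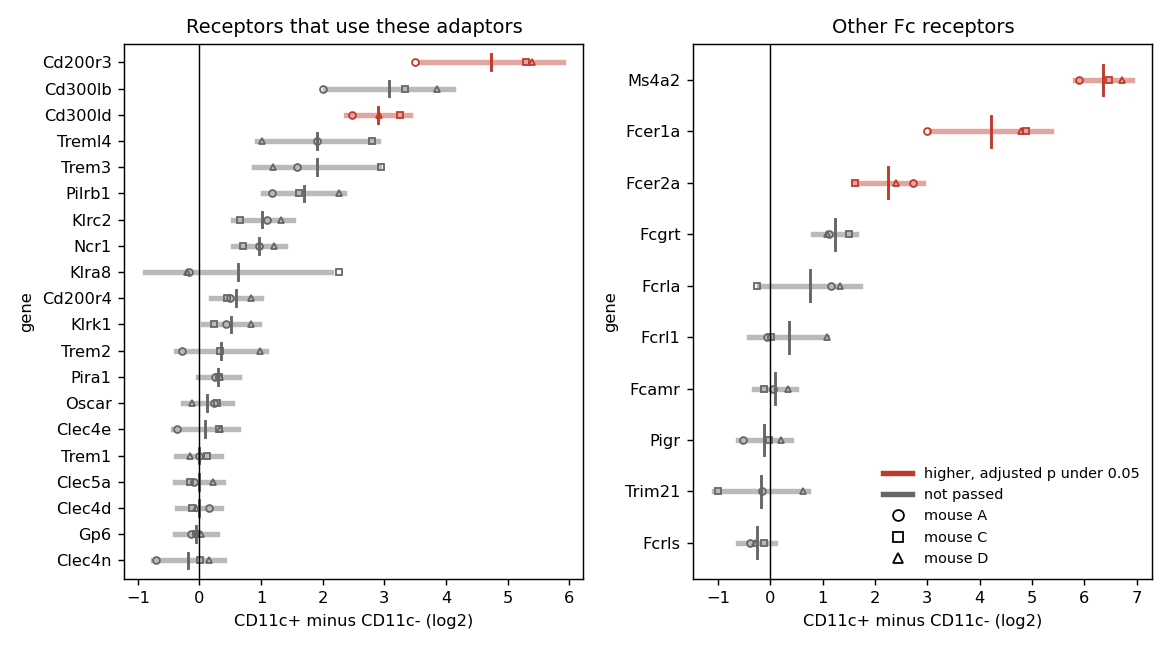
Differences of log2 RMA values, CD11c+ minus CD11c- (horizontal axes), for receptors that use Fcer1g, Tyrobp or Hcst (left) and for other Fc receptors (right), 1 gene to a line, with open markers for the mice, ticks for the mean, bars for the 95% confidence interval and red for an adjusted p under 0.05. Of 20 adaptor-using receptors 2 passed, and of 10 other Fc receptors 3 passed, with Ms4a2 farthest to the right at 6.35.

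Of 14 other Fc receptors and Fc-binding genes, 10 were measured, and 3 were higher and 0 lower, against 1.4% and 0.222% of all genes, with a median difference of 0.55 against -0.09 over all genes. The alpha and beta chains of the high-affinity IgE receptor, which forms a complex with Fcer1g on basophils and mast cells, were both among them. Ms4a2, the beta chain, read 9.03, 9.37 and 9.79 in CD11c+ cells and 3.14, 2.91 and 3.08 in CD11c- cells, higher by 6.35 (adjusted p = 0.00554, at least 12.4-fold). Fcer1a, the alpha chain, read 5.94, 7.65 and 7.87 against 2.94, 2.77 and 3.08, higher by 4.22 (adjusted p = 0.0396, at least 2.61-fold), and was lowest among the CD11c+ arrays in mouse A. Ms4a2 was higher with a second probe set as well, by 3.84 (adjusted p = 0.0245).

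Fcer2a, the low-affinity IgE receptor of B cells, read 6.40, 5.31 and 5.88 in CD11c+ cells and 3.68, 3.68 and 3.48 in CD11c- cells, with 1 CD11c+ array below background. It was higher by 2.25 (adjusted p = 0.0493, at least 1.07-fold), while its dimmer probe set, not above background in either group, did not pass at 0.70 (adjusted p = 0.419). Neither Fcer1a nor Fcer2a passed without mouse C (adjusted p = 0.105 and 0.0564), without mouse D (0.0639 and 0.0962), with the arrays centred on their median (0.0542 and 0.0762) or after cyclic loess (0.0582 and 0.0804). Fcgrt, the neonatal Fc receptor, which recycles IgG, had a difference of 1.23 that did not pass (adjusted p = 0.0588). At the low end, Fcrls had a difference of -0.26, Trim21, the cytosolic antibody receptor, one of -0.18 and Pigr, the receptor that carries IgA across epithelia, one of -0.11.

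Downstream of the receptors, 44 of 50 listed kinases, linkers, lipid enzymes and phosphatases were measured, and 6 were higher and 0 lower, against 1.4% and 0.222% of all genes, with a median difference of -0.01 against -0.09 over all genes. Syk, the kinase that docks on the ITAMs of Fcer1g and Tyrobp, read 8.46, 9.37 and 9.62 in CD11c+ cells of mice A, C and D and 5.13, 5.67 and 4.72 in CD11c- cells. The groups were far apart, with the highest and the lowest value both in mouse D, and Syk was higher by 3.98 (SE 0.343, adjusted p = 0.0271, at least 10.4-fold). It did not pass without mouse C (adjusted p = 0.0777). Zap70, the related kinase of the T cell receptor, read 7.27, 6.70 and 6.22 against 6.77, 7.29 and 8.11. Its groups overlapped and the mice disagreed in sign, with a difference of -0.66 (95% CI -1.94 to 0.62, adjusted p = 0.648).

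Plcg2, the phospholipase of B cells and myeloid cells, was higher by 4.18 (adjusted p = 0.00654, at least 9.98-fold), from 9.11, 9.22 and 8.93 against 4.85, 4.72 and 5.15. Fgr, a Src-family kinase of myeloid cells, was higher by 4.08 (adjusted p = 0.0126, at least 7.57-fold), though its other probe set, at 2.18, did not pass (adjusted p = 0.0634). Gab2, a docking protein downstream of Fc receptors, was higher by 3.85 (adjusted p = 0.00626, at least 7.3-fold), and its other 2 probe sets passed too. Lat2, a linker of B cells, NK cells and mast cells, was higher by 2.96 (adjusted p = 0.0149, at least 7.41-fold). Pik3ap1, an adaptor for phosphatidylinositol 3-kinase, was above background in both groups and had 2.59-fold the signal in CD11c+ cells (adjusted p = 0.0318), and its dimmer probe set, at 1.32, did not pass (adjusted p = 0.0653). Lat2 did not pass without mouse C (adjusted p = 0.0616), and Pik3ap1 passed neither without mouse C (0.158), without mouse D (0.0824) nor without the mouse block (0.193).

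The inhibitory side of the pathway was measured in both groups. Inpp5d, the lipid phosphatase recruited by Fcgr2b, read 9.07, 9.22 and 8.87 in CD11c+ cells and 8.95, 8.96 and 8.43 in CD11c- cells, which overlapped, with a difference of 0.27 (95% CI -0.1 to 0.64, adjusted p = 0.515). Ptpn6 (SHP-1), a tyrosine phosphatase of inhibitory receptors, read 9.51, 9.72 and 9.57 against 8.83, 8.72 and 8.54. Its groups did not overlap, but the difference of 0.90 did not pass (adjusted p = 0.0955). It passed without the mouse block (adjusted p = 0.0298).

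At the low end of the signalling list stood genes of the T cell receptor pathway, none of which passed. Rasgrp1 had a difference of -1.30 (adjusted p = 0.0738), Malt1, which relays to NF-kappaB, one of -1.13 (adjusted p = 0.0915) and Prkcq one of -0.75 (adjusted p = 0.126). Of the ITAM chains of the T cell receptor, Cd247, the zeta chain, read 9.44, 9.34 and 8.76 in CD11c+ cells and 10.43, 10.49 and 10.20 in CD11c- cells. Every CD11c+ array of Cd247 was below every CD11c- array, as for 12.5% of all probe sets, and its difference of -1.19 did not pass (adjusted p = 0.0611). Thus no member of the signalling list was lower at this threshold, and without the mouse block 2 were, Rasgrp1 (adjusted p = 0.0482) and Prkcq (adjusted p = 0.0485).

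**Figure D4:**
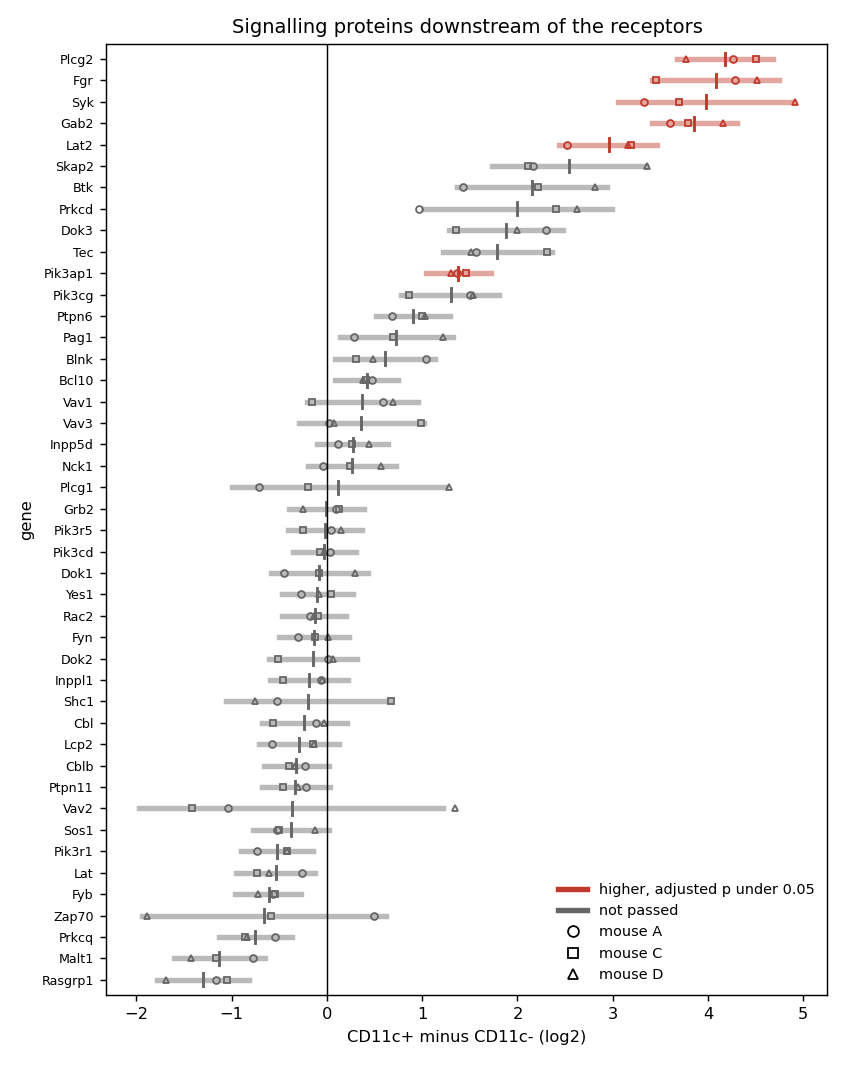
Differences of log2 RMA values, CD11c+ minus CD11c- (horizontal axis), for 44 signalling genes downstream of the receptors (vertical axis), with open markers for the mice, ticks for the mean, bars for the 95% confidence interval and red for an adjusted p under 0.05. The 6 genes that passed are Plcg2, Fgr, Syk, Gab2, Lat2 and Pik3ap1, and Rasgrp1 lies lowest at -1.30.

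Markers of T cells and of other blood cells were examined beside the members, as whole lists. The CD3 chain gene Cd3e was far above background in all 6 samples, at 10.56 to 10.67 in CD11c+ and 11.06 to 11.13 in CD11c- cells, and the summed linear signal of 11 T cell markers was 5935 to 7227 in CD11c+ and 10924 to 11607 in CD11c- cells. For the counts called in the lists that follow, the shares of all genes were 1.4% higher and 0.222% lower. A sum is weighted to its brightest genes. Among these were Ms4a6c in the monocyte list and Blk in the B cell list, with differences of -1.02 and -1.28 that did not pass. Of 16 monocyte and macrophage markers 7 were higher and 0 lower, with sums of 5493 to 7217 against 1726 to 1953. Csf1r was among those higher, and Cd14 was not above background in either group. Of 11 basophil and mast cell markers 7 were higher and 0 lower, with sums of 2808 to 4593 against 199 to 229, while Kit, Tpsb2 and Cma1 were not above background. Of 8 NK cell markers 3 were higher, Gzma among them, and 1, Klrb1c, was lower, with sums of 2928 to 3049 against 843 to 973.

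Of 12 conventional dendritic cell markers 3 were higher, with sums of 1871 to 2980 against 357 to 413. Itgax, which encodes CD11c, was 1 of these and was what the cells were sorted on, and Xcr1 and Zbtb46 were not above background. Of 11 B cell markers 2, Pax5 and Fcer2a, were higher, and the sums of the 11, 745 to 1646 and 665 to 1488, overlapped. Their differences ran from -1.28 for Blk to 2.64 for Cd79a (adjusted p = 0.0955), neither of which passed. In 3 of 3 mice 6 of the 11 were higher and 1, Blk, was lower, against 11.3% and 26.4% of all probe sets. Of 10 neutrophil markers 1 was higher, with sums of 396 to 436 against 155 to 201, and S100a8, S100a9, Camp and Ngp were not above background. The sums of 6 plasmacytoid dendritic cell markers, 308 to 381 and 270 to 360, overlapped, with 1 of the 6 higher. Of 8 platelet markers 1, Itga2b, was higher, with sums of 365 to 620 against 211 to 301, and Ppbp, Gp5, Gp9 and Gp6 had differences of 0.03, 0.03, -0.04 and -0.06 that did not pass. Cd200r3, Fcer1a and Ms4a2 stand in the basophil list, Treml4 in the monocyte list, Ncr1 in the NK cell list, Gp6 in the platelet list, Fcer2a and Fcrla in the B cell list and Lat and the CD3 chains in the T cell list. The part of these cell types in the values of the Fc receptors and adaptors was not tested. In samples of 300 pooled cells, more cells of a type and more RNA per cell cannot be told apart.

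**Figure D5:**
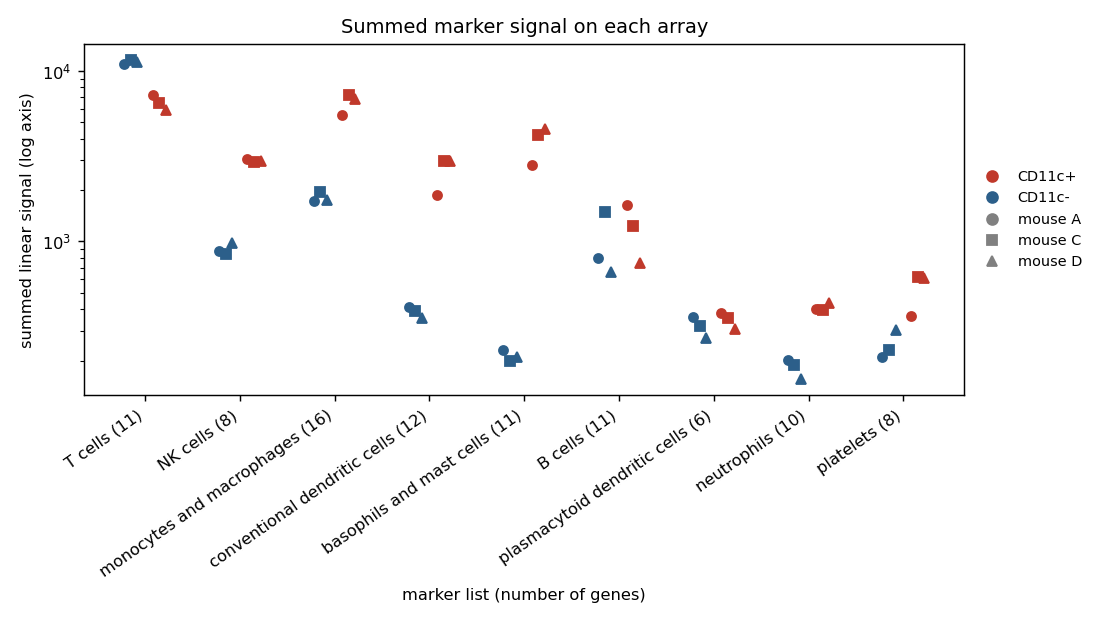
Summed linear RMA signal of each marker list (vertical axis, log scale) on the 6 arrays, with colour for the fraction, marker shape for the mouse and the number of genes of each list in brackets (horizontal axis). The basophil and mast cell sums, 2808 to 4593 in CD11c+ and 199 to 229 in CD11c- cells, do not overlap. The B cell sums, in which Blk was brightest in CD11c- cells, do.

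The genes closest to each member in their pattern over the 6 arrays were found by the root mean square difference of values centred on each gene's mean, among 6884 genes above background in at least 1 group. Closest to Fcgr3 were Tgfbi (0.0861), Nfe2 (0.115) and H2-DMb1 (0.131), a gene of the MHC class II loading machinery. To Fcgr4 they were Ly86 (0.3), a partner of the toll-like receptor relative CD180, Gab2 (0.302) and Rnf130 (0.319), and to Fcgr1 Padi4 (0.207), Siglec1 (0.236), a macrophage receptor, and Pla2g7 (0.247). No gene came as close to the brightest probe set of Fcgr2b, for which Lyz2 (0.887), Csf2rb (0.916) and Ccl9 (0.951) were nearest.

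For the adaptors, Cpne2 (0.0632), BC028528 (0.188) and Tlr9 (0.198), a receptor of unmethylated DNA, came closest to Fcer1g. Closest to Tyrobp were Lilrb4a (0.122), an inhibitory receptor of myeloid and mast cells, Hdc (0.228), the histamine-forming enzyme, and Lrp1 (0.244). Hcst was nearest to Mier2 (0.0687), Clcn7 (0.0786) and Man1a2 (0.0842), whose own differences ran from -0.35 to -0.25 and did not pass. These distances are descriptions over 6 arrays of 3 mice, in log2 units, and carry no test.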

How the data were processed

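Sorted CD11c+ and CD11c- blood T cells of 3 mice were hybridised to 1 single-colour Affymetrix array each, 6 in all. The authors read the images with the Affymetrix instrument software and processed them by RMA, and what they deposited are log2 signals per probe set. RMA and limma are named in the submitters' processing notes, with no version in the sources used here. RMA gives all arrays nearly the same distribution, so a change in total RNA per cell cannot be seen, and amplification from 300 cells can make dim probe sets noisier.

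The 45141 probe sets, 104 of them controls, were fitted with limma 3.58.1 in R 4.3.3, two-sided, with the mouse as a fixed block, Benjamini-Hochberg adjustment over all probe sets and a threshold of 0.05. The labels give each pair of arrays to 1 mouse. Across probe sets, the 2 arrays of a mouse deviated from their group means with correlations of 0.122, 0.0758 and 0.109, and arrays of different mice with -0.086 to -0.0217. The platform annotation gives 28898 probe sets 1 symbol and 551 more than 1, and leaves 15692 unnamed here. Listed genes were represented by the probe set with the highest mean of those with 1 symbol. All members were reported, and of each list up to 6 genes that passed in each direction, up to 4 at each end, and Klrk1, Ncr1, Syk, Zap70, Inpp5d and Ptpn6. Marker genes and genomic neighbours were added as described.

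The members and gene lists were chosen with earlier results of these data known. The alternatives tried were the block, the normalization, a filter on dim probe sets, the variance model, the threshold, the choice of probe set and leaving out each mouse. The labels give 5 days from injection to blood, and the study's methods give a different interval.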

Additional observations from a re-analysis of the deposited data

How the results depend on the processing

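The difference kept its direction under every alternative that tested it for 10 of the 11 probe sets, and Hcst turned from -0.31 to 0.28 with the arrays centred on the CD3 chains, which moved the median difference of all probe sets by 0.588 and the share called higher to 12.2%. With that centring 10 probe sets of Fc gamma receptors and adaptors, 11 adaptor-using receptors, 5 other Fc receptors and 19 signalling genes were higher. Leaving out 1 mouse gave 0 to 9 member probe sets higher, 0 to 2 adaptor-using receptors, 0 to 1 other Fc receptors and 0 to 6 signalling genes, each of the 0 counts being without mouse A, and that of the adaptor-using receptors also without mouse C. Without the mouse block, and thus without the pairing, 9 member probe sets were higher, the added ones being 1 of Fcgr1 (adjusted p = 0.0225) and 2 of Fcgr2b (0.0467 and 0.0165), with 4 adaptor-using receptors and 10 signalling genes higher and 2 signalling genes lower. With the mouse as a random block the last 3 counts were 4, 12 and 2. After removing probe sets under the median mean, 4 adaptor-using receptors and 10 signalling genes were higher, and with the probe sets of a gene averaged 5 and 10, with 1 signalling gene lower. A trended variance gave 11 signalling genes higher and 1 lower. Centring on the median and cyclic loess each left 1 other Fc receptor. At a threshold of 0.01 the counts higher were 0 adaptor-using receptors, 1 other Fc receptor and 2 signalling genes, and at 0.1 they were 5 adaptor-using receptors and 12 signalling genes, with 2 signalling genes lower. Taking the highest gene of other tissues as background left 12 of 22 member group means above it, against 13. The share of all probe sets called higher, 0.957% as reported, was 1.52% without the block and 1.8% with a random block. It was 2.69% after the filter, 1.52% with a trended variance, 0.773% with median centring and 0.76% after cyclic loess. At thresholds of 0.01 and 0.1 it was 0.272% and 1.87%. Without mice A, C and D in turn it was 0.0%, 0.388% and 0.771%. With probe sets averaged, 2.4% of genes were higher and 0.883% lower. The share of probe sets called lower, 0.168% as reported, was 0.467% without the block and 0.7% with a random block. It was 0.459% with a trended variance and 0.842% at 0.1. Counts of receptors and signalling genes are of genes, not probe sets. The causes were not tested.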
